A study of Mus musculus with 8 samples.

Results

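The 9 cathepsin genes described here are Ctsa, Ctsb, Ctsc, Ctsd, Ctsh, Ctsk, Ctsl, Ctss and Ctsz, out of 32285 genes in the matrices. They were taken by name, and their transcripts were counted as UMIs (unique molecular identifiers, 1 per captured 3′ end) in single cells. CD45+CD11b+Ly6Chi cells, a gate for monocytic myeloid cells, had been sorted from MC38 tumors (a mouse colon carcinoma line) or from blood of mice that carried them. The mice were controls or had received local irradiation (IR) of the tumor with 1 dose of 20 Gy, with collection 3 days after it. The 4 libraries (tumor or blood, control or IR) each mixed cells of pooled WT mice (Ythdf2 flox/flox, hashtag antibody B0301) and of pooled Ythdf2-cKO mice (Lyz Cre with Ythdf2 flox/flox, hashtag B0302). Both genotypes therefore carry the floxed alleles, and the Cre is driven from the Lyz2 gene, which myeloid cells use. Cells were labelled WT or cKO by their hashtag, which gave 8 groups of 1 sample each, so no test between conditions was possible and every interval below is a 95% interval for counting error only.

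Cathepsins are proteases of endosomes and lysosomes that are made as inactive proenzymes and mature in acid compartments. Most are cysteine proteases of the papain family, whereas cathepsin D is an aspartic protease and cathepsin A is a serine carboxypeptidase. In monocytes, macrophages and dendritic cells they degrade engulfed protein and cut the invariant chain of MHC class II, and in granulocytes cathepsin C activates the serine proteases of the granules.

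On mm10, in the GENCODE annotation, the protein-coding genes lie with Ctsa at chr2:164832873-164841032 (+), Ctsb at chr14:63122462-63145923 (+), Ctsc at chr7:88278085-88310888 (+), Ctsd at chr7:142375911-142388038 (-) and Ctsh at chr9:90054152-90076089 (+). The others lie with Ctsk at chr3:95499256-95509362 (+), Ctsl at chr13:64359337-64370890 (-), Ctss at chr3:95526786-95556403 (+) and Ctsz at chr2:174427493-174439039 (-). Each has its own locus, and Ctsk and Ctss are neighbours.

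A total of 27443 cells were kept, from 2145 to 4609 per group, with 18839174 to 24812715 gene UMIs per group. Median depth was 2983.5 and 3020.5 UMIs per cell in the blood control and IR libraries and 7298 and 6065.5 in the tumor control and IR libraries. Each tissue and each treatment was its own library, so a difference between tissues or between IR and control cannot be told apart from a difference between libraries, whereas WT and cKO cells shared a library. The tumor matrices contained each other's barcodes: counting barcodes of 500 or more UMIs, 7327 of 13144 in tumor control and 4958 of 12927 in tumor IR had under 20 hashtag UMIs, and 7325 and 4955 of these carried hashtags in the other tumor matrix. Those barcodes were not used, and of the kept cells 125 in tumor control and 153 in tumor IR carried hashtags in both; leaving them out changed no count of genes given below. Ythdf2 went against the genotype label: it was at 302.3, 341, 372 and 338 CPM (UMIs of a gene per 1000000 gene UMIs) in cells labelled cKO and at 32.6, 35.5, 56.0 and 50.5 CPM in cells labelled WT, in blood control, blood IR, tumor control and tumor IR. A 3′ tag outside the deleted part checks nothing about the deletion. Lyz2, where the Cre sits, was at 83.2 to 138 CPM in cells labelled cKO and at 5613 to 14147 CPM in cells labelled WT. The sort markers Ptprc (309 to 1855 CPM), Itgam (330 to 643 CPM) and Ly6c2 (154 to 1464 CPM) were present in all groups, with Ptprc and Ly6c2 lowest in cells labelled cKO of tumor control. Cells outside the gate were also present. In tumor control WT, control cKO, IR WT and IR cKO, a fibroblast-like cluster held 16.7, 30.7, 9.7 and 5.6% of gene UMIs. It had 5 of 7 fibroblast markers raised, without Lum and Pdgfra, and all 5 markers of cycling cells. Its median depth was 26150 UMIs per cell, 3.63 times the library median. The listed carcinoma markers summed to less in every tumor group than in any blood group, so they could not pick out MC38 cells. Whether the fibroblast-like cells were fibroblasts or MC38 cells was not tested.

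Together the 9 genes made up a larger share of the transcripts in tumor than in blood. Their share was 0.315% and 0.326% of UMIs in blood control WT and cKO, 0.348% and 0.374% after IR in blood, 0.627% and 0.580% in control tumors, and 0.762% and 0.851% in irradiated tumors. All 4 tumor groups were above all 4 blood groups. By cell, the median share was 0.132 to 0.175% in the blood groups and 0.628 to 0.741% in the tumor groups. With 1 sum per group, less RNA per cell and fewer cells of a type cannot be told apart in such values, and the classes of cells are therefore taken up below.

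Among the endopeptidases, Ctsl, which cleaves protein broadly in lysosomes, had the widest range between tissues. Ctsl was at 46.8, 38.4, 42.1 and 51.5 CPM in blood control WT, blood control cKO, blood IR WT and blood IR cKO, and at 565, 755, 668 and 824 CPM in the same order in tumor. The tumor groups lay more than 10 times above the blood groups throughout. Ctss, the elastinolytic protease that removes the invariant chain in antigen-presenting cells, was at 1127, 1200, 1166 and 1233 CPM in blood and at 2084, 1605, 2637 and 2734 CPM in tumor. Ctsb, an endopeptidase that also acts as a dipeptidyl carboxypeptidase, was at 416, 476, 449 and 452 CPM in blood and at 736, 721, 794 and 876 CPM in tumor. Both genes were higher in every tumor group than in any blood group. Ctsd, the aspartic protease, was at 387, 304, 428 and 444 CPM in blood and at 464, 481, 570 and 647 CPM in tumor, a smaller step, with no overlap between the tissues. Ctsk, the collagen-degrading protease of osteoclasts, was barely detected, with 7, 4, 5 and 13 UMIs in the blood groups and 25, 63, 30 and 28 UMIs in the tumor groups, at most 2.64 CPM.

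Among the exopeptidases, Ctsc, the dipeptidyl peptidase that activates granule serine proteases, was at 264, 278, 380 and 477 CPM in blood control WT, blood control cKO, blood IR WT and blood IR cKO, and at 1022, 1028, 1484 and 1889 CPM in the matching tumor groups. It was higher in tumor than in blood and higher under IR than in control in each pair. Ctsz, a carboxypeptidase, was at 327, 355, 387 and 419 CPM in blood and at 779, 700, 866 and 906 CPM in tumor. Ctsh, an aminopeptidase, was at 355, 355, 378 and 391 CPM in blood and at 401, 297, 417 and 434 CPM in tumor, and Ctsa, the carboxypeptidase that also protects lysosomal galactosidase and neuraminidase, was at 228, 254, 251 and 273 CPM in blood and at 213, 211, 179 and 200 CPM in tumor. Over all kept cells, Ctsa was thus lower in CPM in every tumor group than in any blood group, and Ctsh overlapped between the tissues.

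**Figure D1:**
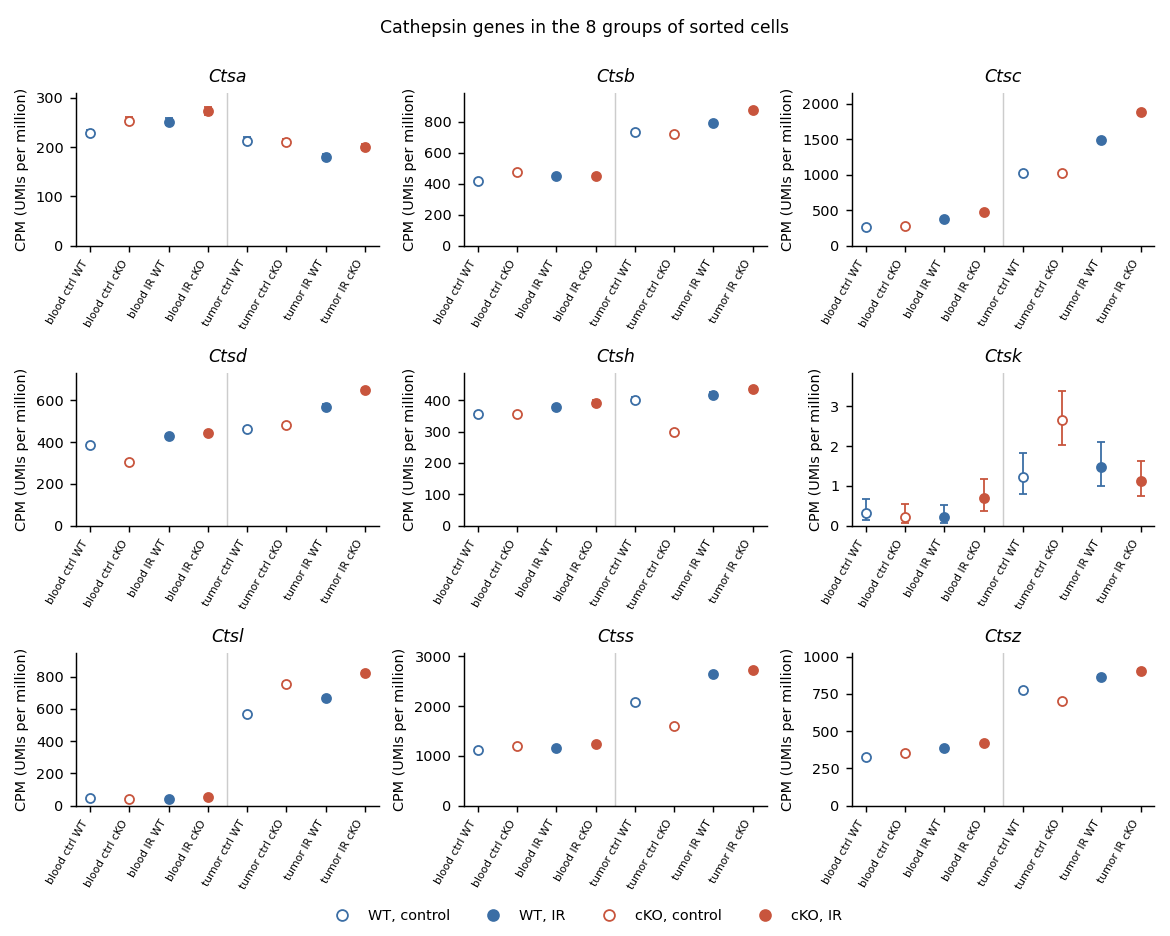
CPM (y axis, linear from 0) of each of the 9 cathepsin genes in the 8 groups (x axis; ctrl, control), with exact Poisson 95% intervals. Ctsl steps from 38.4 to 51.5 CPM in blood to 565 to 824 CPM in tumor, Ctsc climbs to 1889 CPM in tumor IR cKO, and Ctsk stays at or below 2.64 CPM.

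The first comparison was of tumor with blood. A gene was taken as past the limit when it differed at least 2-fold (1 on the log2 scale) with at least 100 UMIs over both groups; 8 of the 9 genes had that many, all but Ctsk. In WT control cells 3 of the 9 were higher in tumor, against 19.9% of all genes tested: Ctsl by 3.59 (3.5 to 3.69) on the log2 scale, Ctsc by 1.96 (1.91 to 2.0) and Ctsz by 1.25 (1.21 to 1.29). In WT IR cells 4 of the 9 were higher (15.9% of all genes), the same genes at 3.99, 1.96 and 1.16 and Ctss at 1.18. In cells labelled cKO, 2 were higher in control (27.4% of all genes; Ctsl 4.30, Ctsc 1.89) and 4 in IR (16% of all genes; Ctsl 4.0, Ctsc 1.99, Ctss 1.15, Ctsz 1.11). Ctsz just missed the limit in cKO control at 0.98, and no cathepsin gene was past it in the lower direction. The median log2 difference over the 9 genes was 0.89, 0.66, 1.16 and 0.96 in WT control, cKO control, WT IR and cKO IR, beside 0.11, 0.23, -0.08 and -0.09 over all genes tested. Here and below, medians over the 9 genes include Ctsk, whereas all genes tested had at least 100 UMIs. The 13 differences past the limit were past it under all 14 alternatives.

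The fibroblast-like cells bear on the control tumors. They held 37.0% of the Ctsl UMIs in tumor control WT, 56.6% in tumor control cKO, 17.7% in tumor IR WT and 8.7% in tumor IR cKO, and, in the 3 groups with at least 50 of them, carried Ctsl at 1216 to 1394 CPM with Ctsc at 10.1 to 30.4 CPM and Ctss at 12.6 to 37.0 CPM. Without them the tumor to blood difference of Ctsl was 3.19 in WT control and 3.62 in cKO control on the log2 scale. That of Ctsc was 2.22 and 2.41. No share of all genes is given for cells without the fibroblast-like ones, so a count of genes past the limit is not set beside those above. Ctsb then stood at 1.02 and 1.01, Ctsz at 1.44 and 1.37, Ctss at 1.15 in WT, and Ctsd at 1.07 in cKO. Ctsa changed sign in the controls, from -0.10 in WT and -0.27 in cKO over all cells to 0.11 and 0.13 without fibroblast-like cells. Ctsh in cKO control went from -0.26 to 0.20. Under IR, Ctsa stayed lower in tumor without fibroblast-like cells, at -0.38 in WT and -0.39 in cKO.

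**Figure D2:**
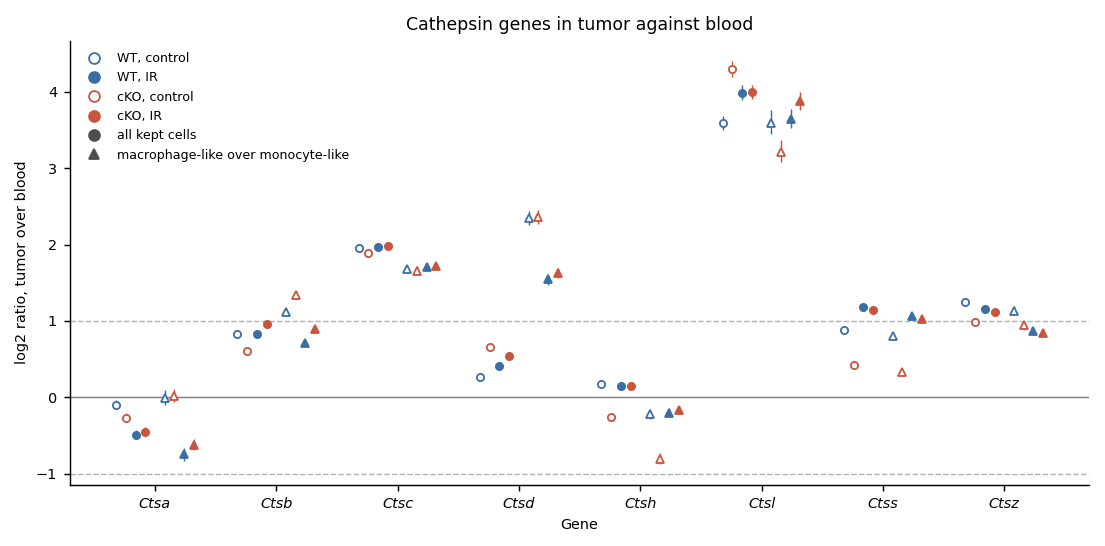
Log2 ratio of CPM in tumor over blood (y axis) for each gene but Ctsk (x axis), from all kept cells (circles) and from tumor macrophage-like over blood monocyte-like cells (triangles), with 95% counting intervals and dashed lines at 1 and -1. Ctsl lies between 3.22 and 4.30 in all 8 comparisons, whereas Ctsd moves from 0.26 to 0.66 over all cells to 1.54 to 2.36 between the classes.

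Cells were clustered without the cathepsin genes, Ythdf2, Lyz1 and Lyz2, and a cluster was named only where at least 3 markers of 1 list were raised, its 10 leading genes held no more markers of another list than of that one, and it was not of low depth with none of its markers leading. Levels of the cathepsin genes across classes thus did not enter the naming. In blood, neutrophil-like cells made up 66.9 to 71.2% of the cells of each group and monocyte-like cells 16.6 to 22.2%. Most blood cells thus did not carry the name of monocytic cells, and the 12 neutrophil markers summed to 69680 to 106243 CPM in the blood groups and to 244 to 2032 CPM in the tumor groups. In tumor, 3 macrophage-like clusters held 609, 609, 1182 and 1545 cells of control WT, control cKO, IR WT and IR cKO, and 6 clusters that met no name held 52.0 to 63.4% of the cells. One of these, led by Cdh1, Dcstamp and Tnip3, had 370, 503, 130 and 208 cells in the same order. It had 5 macrophage markers raised (C1qa, C1qb, C1qc, Trem2 and Arg1) but none among its 10 leading genes, which held the monocyte marker Fn1, so it was kept out of the macrophage-like class. The macrophage-like cluster led by Cfb, with 414, 123, 1121 and 1392 cells in the same order, had 4 of 11 raised (C1qa, C1qb, C1qc and Arg1). Its leading genes held no macrophage marker and no marker of another list.

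Most of the genes made up a larger share of UMIs in monocyte-like than in neutrophil-like blood cells, and Ctsd ran the other way. CPM is such a share and not an amount per cell. Median depth in blood control WT was 10171 UMIs per cell in monocyte-like and 2487 in neutrophil-like cells. Ctsc was at 541 CPM in monocyte-like and 8.40 CPM in neutrophil-like cells of blood control WT (log2 5.99, 5.67 to 6.37). Over the 4 blood groups, Ctsc in neutrophil-like cells lay between 8.40 and 14.8 CPM, below the 227 and 368 CPM in the empty droplets of the blood control and IR libraries. Ctss was at 1975 against 81.5 CPM (4.6), Ctsb at 618 against 80.9 CPM (2.93), Ctsh at 590 against 84.5 CPM (2.80), Ctsz at 492 against 108 CPM (2.19) and Ctsa at 303 against 136 CPM (1.16). Ctsd was at 158 CPM in monocyte-like and 706 CPM in neutrophil-like cells (-2.16, -2.25 to -2.07). Thus 6 of the 9 genes were higher and 1 lower in monocyte-like cells of blood control WT, where 42.9% of all genes were higher. The median of the 9 genes was 2.19 on the log2 scale beside 0.71 over all genes.

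In cells labelled cKO of blood control, 7 were higher (45.9% of all genes), the first 6 by 1.96 (Ctsa) to 5.79 (Ctsc), and Ctsd was again lower, at 167 against 518 CPM (-1.63). The seventh was Ctsl, at 63.3 CPM in monocyte-like and 19.1 CPM in neutrophil-like cells (1.72), where WT had 49.2 and 57.8 CPM (-0.23). Neutrophil-like cells held 66.5 to 70.9% of all Ctsd UMIs in the 4 blood groups and 0.9 to 1.4% of Ctsc UMIs. They were 66.9 to 71.2% of the cells there and held 36.2 to 39.4% of gene UMIs, so their share of Ctsd UMIs was near their share of cells. Monocyte-like and nonclassical monocyte-like cells differed among the genes as well: summed over the blood groups, Ctsb was at 632 and 1023 CPM and Ctsc at 666 and 355 CPM, while Ctss was at 1934 and 2060 CPM.

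Cells outside the monocytic classes had their own patterns. NK cell-like cells carried Ctsd at 941 CPM in blood and 643 CPM in tumor, with Ctss at 35.1 and 78.8 CPM and Ctsh at 5.61 and 0.949 CPM. Dendritic cell-like cells were different clusters in the tissues, all 222 in blood from a cluster led by Cd209a, Cd7 and Flt3 and nearly all 154 in tumor from a cluster led by Ccl22, Ccr7 and Fscn1. They carried Ctsh at 747 CPM in blood and 566 CPM in tumor, Ctss at 1413 and 933 CPM, and Ctsz at 639 and 912 CPM. B cell-like cells of blood, only 76 of them, carried Ctss at 719 CPM and Ctsh at 404 CPM. NK cell-like cells thus carried Ctsd with little Ctss, and dendritic cell-like cells the reverse, with Ctsd at 76.8 CPM in blood and 24.1 CPM in tumor.

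**Figure D3:**
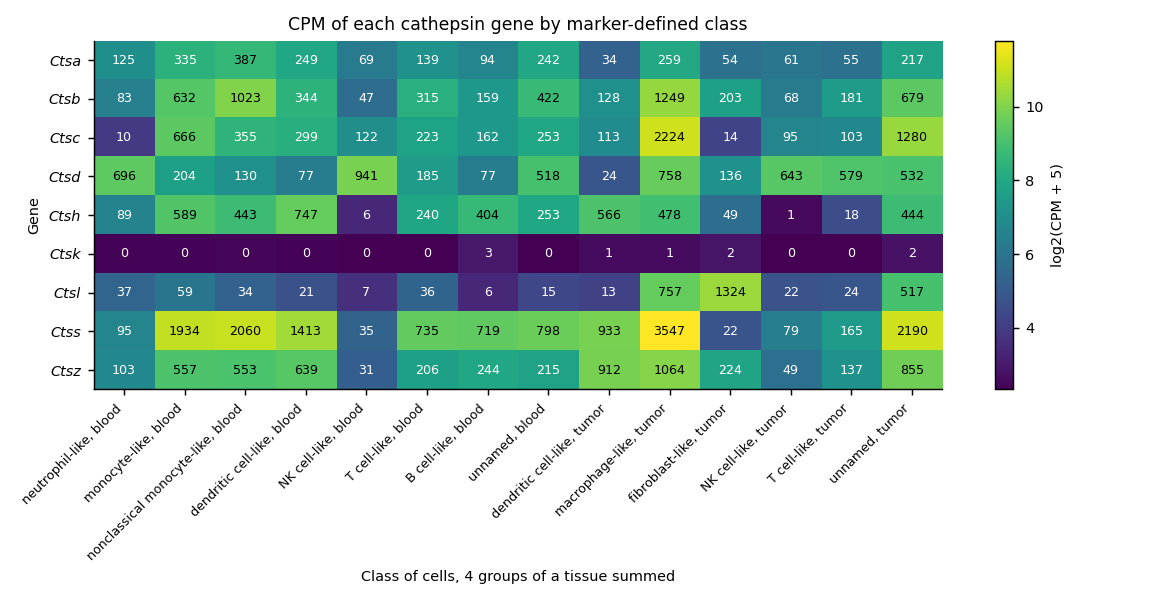
CPM of each gene (rows) in each marker-defined class (columns), summed over the 4 groups of a tissue; numbers are CPM rounded to whole numbers and color is log2(CPM + 5). Ctsd reads 696 in neutrophil-like blood cells and 204 in monocyte-like cells, Ctsc reads 10 and 666, and Ctsl reads 1324 in fibroblast-like cells.

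Macrophage-like tumor cells were set against monocyte-like blood cells, which takes neutrophil-like and fibroblast-like cells out of the comparison. In WT control 5 of the 9 genes were higher in macrophage-like cells (12.5% of all genes): Ctsl at 596 against 49.2 CPM (log2 3.60), Ctsd at 804 against 158 CPM (2.34), Ctsc at 1725 against 541 CPM (1.67), Ctsz at 1080 against 492 CPM (1.13) and Ctsb at 1343 against 618 CPM (1.12). Over all cells of these groups Ctsd was at 464 CPM in tumor and 387 CPM in blood (0.26), so the level on both sides differed between the comparisons. In the other groups 4 were higher: WT IR (12.2% of all genes; Ctsl 3.65, Ctsc 1.71, Ctsd 1.54, Ctss 1.07), cKO control (14.5%; Ctsl 3.22, Ctsd 2.36, Ctsc 1.66, Ctsb 1.34) and cKO IR (12.7%; Ctsl 3.88, Ctsc 1.72, Ctsd 1.63, Ctss 1.03). Ctsl, Ctsc and Ctsd were past the limit in all 4. Where not yet given, Ctsb, Ctss and Ctsz lay between 0.34 (Ctss, cKO control) and 0.94 (Ctsz, cKO control), Ctsa between -0.74 and 0.02 and Ctsh between -0.80 and -0.17, and Ctsk had under 100 UMIs. The median over the 9 genes was 1.12, 1.07, 1.34 and 0.89 in WT control, WT IR, cKO control and cKO IR, beside -0.17, -0.41, -0.15 and -0.38 over all genes tested. The largest macrophage-like cluster differed between the groups: it was the cluster led by Cfb and interferon-induced genes in control WT (414 cells) and in IR (1121 and 1392 cells) and the cluster led by Ccl8, Folr2 and complement C1q genes in control cKO (362 cells). The smallest, led by Pclaf and Mki67, had all 5 markers of cycling cells raised. It held 26, 124, 5 and 2 cells of control WT, control cKO, IR WT and IR cKO, and its part in values of the class was not tested.

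Other genes of the lysosome were counted in the same comparison from lists of named genes. Of 8 genes of class II antigen processing, 7, 6, 6 and 6 were higher in macrophage-like cells of WT control, WT IR, cKO control and cKO IR, with list medians of 3.98, 2.86, 2.79 and 2.76 on the log2 scale. H2-Eb1 and H2-Ab1, which encode class II chains, differed by 6.39 to 8.35 and by 5.12 to 7.16, and Cd74, the invariant chain that Ctss cuts, by 3.56 to 5.01. Of 8 genes of cathepsin processing and sorting, 2 or 3 were higher and 1 lower; Lgmn, the asparaginyl protease that matures several cathepsins, was higher by 2.98 to 4.04, and Sort1, a sorting receptor, was lower, at -4.68 to -4.21. Of 20 other lysosomal enzymes, 5, 1, 4 and 3 were higher and 0, 3, 1 and 3 lower, with medians of 0.63, 0.02, 0.57 and 0.04. Of the MiT/TFE factors, which drive lysosomal genes, Mitf was higher by 1.15 to 1.65 and Tfec by 1.09 to 1.58, and Tfeb was lower, at -1.85 to -1.58. Of the inhibitors, Cstb (cystatin B) was higher by 1.36 to 2.31 and Serpinb1a, an inhibitor of neutrophil serine proteases, was lower, at -5.40 to -4.39. Of all genes tested, 12.5, 12.2, 14.5 and 12.7% were higher and 14, 22.1, 16 and 22.3% lower in WT control, WT IR, cKO control and cKO IR, with the medians given above. No difference between the lists, or between a list and all genes, was tested.

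MiT/TFE factors bind an E-box, and short stretches of the gene starts are shown because 3 of the 7 cathepsin genes with a RefSeq window hold the letters CACGTG. A window is here the 250 bases before the start, searched on both strands. Bases after the start were not searched, and Ctsb and Ctsh have no window. The same letters are in 6.02% of all 32851 windows, a share counted by window and not by gene. The 7 genes have 8 windows, since Ctsa has a second start, and for Ctsa only the window of that start matches. The matches are in capitals, on the gene's strand, in build GRCm38.p6, and lie upstream of the RefSeq start:
Ctsa, chr2:164833749-164833772, 12 bases before a second start within the gene: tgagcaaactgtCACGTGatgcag
Ctsd, chr7:142387908-142387937, 98 bases before the start: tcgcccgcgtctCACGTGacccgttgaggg
Ctsd, chr7:142388055-142388077, 245 bases before the start: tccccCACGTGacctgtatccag
Ctsl, chr13:64370739-64370768, 236 bases before the start: ggcgttagaagcCACGTGctgatctaaatt
Ctss holds no such match in its window but has 1 match to the interferon response element (GAAA, any 2 bases, GAAA), found in 2.98% of all windows, 21 bases before the start at chr3:95526755-95526784: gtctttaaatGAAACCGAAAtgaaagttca
The RefSeq starts of Ctsd and Ctsl lie 211 and 370 bases inside the genes as GENCODE annotates them, so the first Ctsd match and the Ctsl match fall within the annotated genes, and the second Ctsd match lies upstream. A match is a run of letters and not a measured site. Of the genes that hold E-box letters, Ctsl and Ctsd were past the limit in macrophage-like against monocyte-like cells and Ctsa was not, and Ctsc, whose window holds none, was.

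The second comparison was of IR with control. None of the 9 genes was past the limit in WT tumor (5.91% of all genes in either direction), cKO tumor (22.1%), WT blood (1.3%) or cKO blood (1.37%). As summed over all cells, Ctsc had the largest difference among the genes with 100 UMIs in all 4 comparisons: 0.54 (0.51 to 0.56) on the log2 scale in WT tumor, 0.88 (0.86 to 0.90) in cKO tumor, 0.53 (0.48 to 0.58) in WT blood and 0.78 (0.73 to 0.83) in cKO blood. With the same weight given to each cluster in both groups, Ctsc differed by 0.28, 0.46, 0.38 and 0.54, and without fibroblast-like cells the tumor values were 0.42 and 0.44. Ctsl differed by 0.24 and 0.13 in WT and cKO tumor and by -0.16 and 0.42 in WT and cKO blood. At the same cluster weights its tumor values were 0.58 and 0.67, and without fibroblast-like cells 0.51 and 0.75, above those of Ctsc. Ctss followed in cKO tumor at 0.77, which was 0.20 at the same cluster weights, and Ctsh at 0.55, which was -0.04. In WT tumor, WT blood and cKO blood, Ctss differed by 0.34, 0.05 and 0.04 and Ctsh by 0.06, 0.09 and 0.14. Ctsd differed by 0.29 and 0.43 in WT and cKO tumor and by 0.53 and 0.53 at the same cluster weights. In WT and cKO blood Ctsd differed by 0.14 and 0.55, and by 0.21 and 0.47 at the same cluster weights. Ctsa, Ctsb and Ctsz lay between -0.25 (Ctsa, WT tumor) and 0.37 (Ctsz, cKO tumor) in all 4 comparisons, and Ctsk had under 100 UMIs. The share of fibroblast-like UMIs, lower in the IR groups as given above, moved with these values; its part was not tested beyond leaving those cells out.

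Within blood monocyte-like cells no gene was past the limit for IR in WT (0.729% of all genes) or cKO (0.9%). Ctsc was at 541 and 699 CPM in WT control and IR (0.37) and at 550 and 811 CPM in cKO (0.56), and Ctsd was at 158 and 231 CPM in WT (0.54) and at 167 and 240 CPM in cKO (0.52). The other genes but Ctsk lay between -0.11 (Ctss, cKO) and 0.23 (Ctsz, WT). Neutrophil-like cells had none either in WT (0.67%) or cKO (2.5%), with values of the genes but Ctsk from -0.81 (Ctsl) to 0.58 (Ctss) in WT and from 0.12 (Ctsh) to 0.94 (Ctsl) in cKO.

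Within macrophage-like tumor cells as a whole none was past the limit for IR in WT (7.62% of all genes) or cKO (17.4%). Values ran from -0.61 (Ctsa) to 0.41 (Ctsc) in WT and from -0.69 (Ctsa) to 0.71 (Ctsl) in cKO, and single clusters went past the limit. In the cluster led by Ccl8, Fcrls, Pf4 and Folr2, Ctsl was at 1122 CPM in control WT (169 cells) and 3520 CPM in IR WT (56 cells), and at 793 CPM in control cKO (362 cells) and 3456 CPM in IR cKO (151 cells). The log2 difference was 1.65 (1.54 to 1.76) in WT, where 1.88% of all genes were higher, and 2.12 (2.05 to 2.20) in cKO, where 3.83% were. By cell, the median Ctsl level was 885 and 552 CPM in control WT and cKO and 1299 and 2483 CPM in IR WT and cKO; in IR WT the tenth of cells with the most held 58.3% of the Ctsl UMIs. The nearest cluster in other clusterings gave 1.68 to 1.69 in WT and 1.02 to 2.21 in cKO, the lowest with the cathepsin genes included in the clustering. Ctsd in the same cells went from 1596 to 2716 CPM in WT (0.77) and from 1129 to 2106 CPM in cKO (0.90), both within 2-fold. Ctsl was the 1 cathepsin gene past the limit there in both genotypes. This cluster was singled out after its values were seen.

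In the larger macrophage-like cluster, led by Cfb and interferon-induced genes, Ctsl went from 316 to 597 CPM in WT (0.91). In cKO it went from 249 to 715 CPM (1.52), past the limit, where 6.23% of all genes were higher. Ctsc went from 1816 to 2337 CPM in WT and from 1934 to 2729 CPM in cKO, and Ctsd differed by 0.71 and 0.68. The unnamed cluster led by Adora2b, Nrg1 and Havcr2 had Ctsl at 234 and 199 CPM in WT control and IR and at 216 and 250 CPM in cKO, and Ctsc at 699 and 723 CPM in WT and at 839 and 918 CPM in cKO. IR differences in Ctsl and Ctsc were thus uneven over the tumor clusters. The unnamed cluster led by Hspa1a, Mmp12 and Cxcl3 was the only one of the 7 macrophage-like or unnamed clusters with at least 50 cells in each tumor group to have Ctsc past the limit. Ctsc went there from 1007 to 2024 CPM in cKO (1.01), where 5.31% of all genes were higher, against 1142 to 1813 CPM in WT (0.67).

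**Figure D4:**
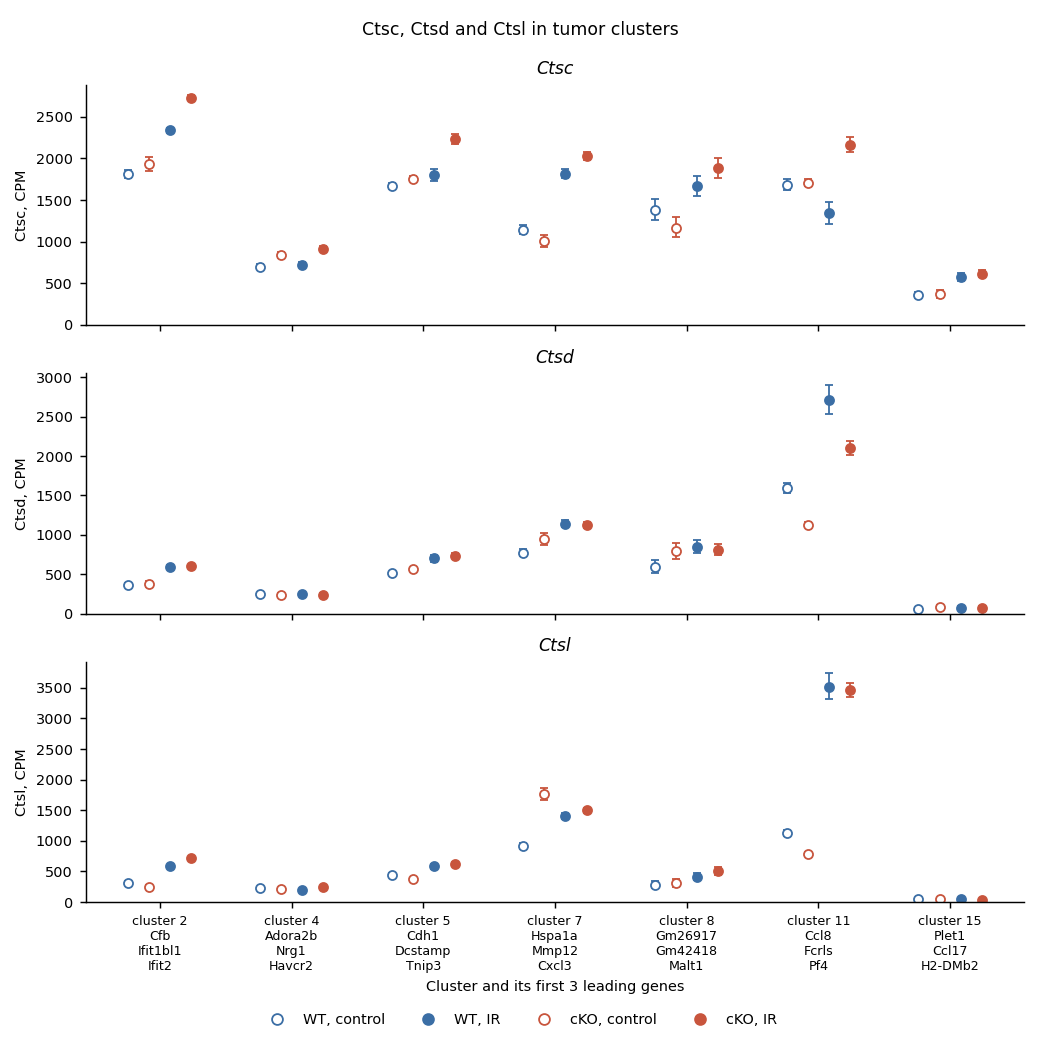
CPM (y axes, linear from 0) of Ctsc, Ctsd and Ctsl in the 7 macrophage-like or unnamed tumor clusters with at least 50 cells in each tumor group (x axis, with 3 leading genes; the NK cell-like cluster, which also has them, is not drawn), with exact Poisson 95% intervals. In the cluster led by Ccl8, Ctsl stands at 793 and 1122 CPM in the control groups and at 3456 and 3520 CPM in the IR groups, and Ctsd at 2106 and 2716 CPM under IR.

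The third comparison set the labels cKO and WT against each other inside each library, where the Ythdf2 tags ran against the labels as given above. None of the 9 genes was past the limit in blood control (2.23% of all genes), blood IR (0.664%), tumor control (4.94%) or tumor IR (1.07%). Ctsc was higher in cells labelled cKO under IR, by 0.33 (0.28 to 0.37) on the log2 scale in blood and 0.35 (0.33 to 0.37) in tumor, and differed by 0.08 and 0.01 in the controls. In tumor IR the difference was 0.09 to 0.69 over the same 7 clusters, the lowest with an interval of -0.07 to 0.25, and 0.06 (-0.81 to 0.98) in the NK cell-like cluster. Without fibroblast-like cells Ctsc differed by 0.27 in tumor control and 0.29 in tumor IR. At the same cluster weights it differed by 0.06 and 0.21 in control and IR blood and by 0.09 and 0.24 in control and IR tumors. The other genes but Ctsk, which had under 100 UMIs, lay between -0.35 (Ctsd) and 0.19 (Ctsb) in blood control, between 0.01 (Ctsb) and 0.29 (Ctsl) in blood IR and between 0.05 (Ctss) and 0.30 (Ctsl) in tumor IR. Whether the difference of Ctsc between genotypes depends on IR could not be tested with 1 sample per group.

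In tumor control, Ctsh and Ctss were lower in cells labelled cKO, at -0.43 and -0.38 on the log2 scale, and Ctsl was higher, at 0.42. Fibroblast-like cells held 30.7% of the gene UMIs of the cKO group and 16.7% of the WT group there; without them the values were -0.21, -0.11 and 0.15, and at the same cluster weights -0.10, -0.12 and 0.02. Ctsa, Ctsb, Ctsd and Ctsz lay between -0.15 (Ctsz) and 0.05 (Ctsd). Macrophage-like cells had none past the limit between the labels in control (4.4% of all genes) or IR (0.279%), and monocyte-like cells had none in blood control (0.544%) or blood IR (0.296%).

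Neutrophil-like cells of blood control had 1, Ctsl (3.78% of all genes), and none in blood IR (0.44%). Ctsl was at 57.8 CPM in WT and 19.1 CPM in cKO in control (-1.59, -1.88 to -1.33) and at 32.8 and 36.8 CPM under IR (0.16), so that control WT was the high group and control cKO the low one. Ctsl was lower in cells labelled cKO of blood control in each of the 3 larger neutrophil-like clusters, at 56.5 against 23.8 CPM, 60.6 against 22.1 CPM and 65.7 against 15.9 CPM (WT against cKO). The last pair rests on under 100 UMIs, the minimum for a call. The neutrophil-like cluster with Lcn2, Ngp and Ly6g, where Ctsl was at 13.1 CPM, was mostly of 1 group: 433 of its 537 cells were labelled cKO and came from blood control. Empty droplets of the blood control library held Ctsl at 55.0 CPM.

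**Figure D5:**
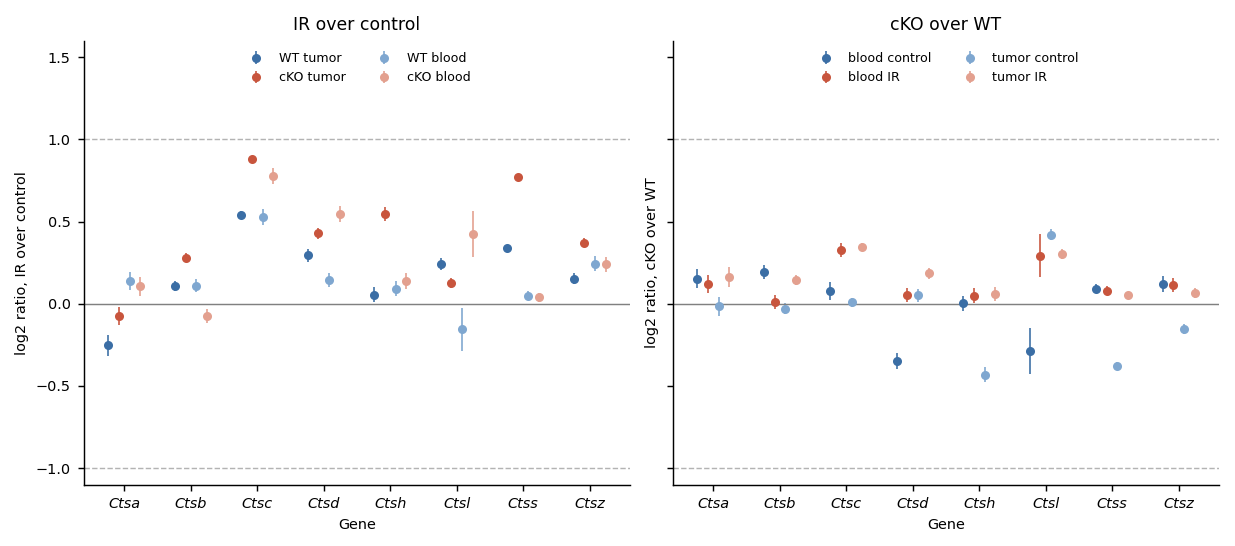
Log2 ratio of CPM (y axis) of IR over control (left) and of cells labelled cKO over WT (right) for each gene but Ctsk (x axis), with 95% counting intervals and dashed lines at 1 and -1. No gene passes a dashed line; Ctsc reaches 0.88 for IR in cKO tumor, and Ctsh and Ctss lie at -0.43 and -0.38 for cKO over WT in tumor control.

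Likeness of each gene to others was described by Pearson's r of log2(CPM + 5) over 29 sums of a class in a group, which share libraries and depth, and carries no test. The nearest genes to Ctss were Ifi207 (r = 0.97) and Capza2 (0.97), to Ctsa Csf1r (0.96) and Clec4a3 (0.96), to Ctsb Guca1a (0.96) and P2rx7 (0.95), and to Ctsz Sowahc (0.95) and Ifi30 (0.95). To Ctsc they were Ap2s1 (0.95) and Fcgr2b (0.92), to Ctsh Erp29 (0.94) and Ifitm3 (0.94), to Ctsl Nt5dc2 (0.94) and Ecm1 (0.94), and to Ctsd Snx18 (0.87) and Slc16a6 (0.86). Among the members, Ctsb and Ctss were alike (0.87), as were Ctsc and Ctss (0.85), while Ctsd had r of -0.33 with Ctss and -0.56 with Ctsh. Ctsk, whose gene ends 17423 bases before Ctss starts on chromosome 3, was at too few UMIs to be read.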

How the data were processed

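Per the labels and the study's methods, the authors made the deposited UMI counts with Cell Ranger 6.0.1 (the matrix headers name version 4) on mm10 (Chromium 3′ kit v3.1) and analyzed them with Seurat 4.0.6; the counts are unnormalized and include all barcodes. Here cells were called per library at an order-of-magnitude threshold plus an ambient test (FDR 0.01, at least 500 UMIs), with at least 200 genes and at most 25% mitochondrial UMIs. Genotype followed hashtags (at least 20 UMIs; WT if B0301 was at least B0302, cKO if B0302 was at least 4 times B0301). Scrublet's own threshold marked 0 to 3 barcodes per library and did not work, so the 6% with the highest scores were removed. Clusters came from Seurat 5.3.0 (2000 variable genes, 40 components, Louvain, resolution 0.8). UMIs were summed per group and class as CPM with exact Poisson intervals; log2 ratios, after adding 1 UMI scaled to depth, have exact conditional binomial intervals, and the calculation was tested on simulated data. The rule was to name all 9 genes in every comparison, here by value or range, with Ctsk (under 100 UMIs in each) by that alone. Comparisons of the labels within a class and comparisons of single clusters name only some of them. List members past the limit may be named. The genes and lists were chosen with earlier results of these data known. Computation used scanpy 1.11.5, scipy 1.17.1 and edgeR 4.0.16 (TMM factors). Intervals cover counting error only. Promoter windows are RefSeq's; gene positions are from GENCODE on the same build. Alternatives tried were other hashtag rules (HTODemux included), cell calls, mitochondrial and UMI limits, no doublet removal, TMM scaling and equal weight per cell.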

Additional observations from a re-analysis of the deposited data

How the results depend on the processing

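No paired analysis was possible because each group is 1 sample and no test was run; leaving out a replicate was not possible for the same reason. Counts of genes past the limit, recomputed under each alternative, were within 1.5 times the reported count in 212 cases and not in 16, and no called value reversed. Among log2 ratios 526 were marked as moved and 1526 as the same, and among class CPM values 110 and 286. Values within the limit could change sign. Ctsb for IR in cKO tumor ran from -0.42 to 0.49 over 16 alternatives and kept its sign in 13. For IR against control in cKO tumor, 1 gene was past the limit with TMM scaling (Ctsc), 1 with at least 20 UMIs and 1 with no minimum of UMIs (Ctsk). With no minimum, 1 gene (Ctsk) passed also in IR against control of cKO blood, and in cKO against WT of blood IR and tumor control, the last also with at least 20 UMIs (1). For cKO against WT in blood control, the largest named class alone gave 1 (Ctsl). For tumor against blood in WT control, 5 genes passed with a hashtag margin on both labels, 6 with each cell counting alike, and 5 without fibroblast-like cells or without these and lymphoid cells. In cKO control 5 passed in each of the latter 3. No share of all genes is given for the counts under these settings, so they cannot be read against the reported counts. Within macrophage-like cells, IR against control in cKO gave 1 with another clustering seed. The cause was not tested beyond each setting's own construction. The alternatives without shared barcodes, without fibroblast-like or lymphoid cells, at equal cluster weights and with another seed were chosen after seeing the data. Equal cluster weights were not run between tumor and blood, where the neutrophil-like, monocyte-like and macrophage-like clusters were each nearly all of 1 tissue. Tumor cluster boundaries also shifted with the linear algebra kernel used. With 1 sample per group, spread between mice is unknown.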

Other observations

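Of 5 granule proteases that cathepsin C activates, 3 were higher and 2 lower in cells labelled cKO of blood control, where 0.654% of all genes were higher and 1.58% lower. Elane (neutrophil elastase), Prtn3 (proteinase 3) and Ctsg (cathepsin G) were higher, by 2.96, 1.42 and 1.53 on the log2 scale, and Gzma and Gzmb, the granzymes, were lower, at -1.79 and -1.54. In blood of WT, Elane, Prtn3 and Ctsg were higher under IR, by 5.13, 1.78 and 1.23, where 0.338% of all genes were higher. The rises in both comparisons were taken against the same group, blood control WT. In blood IR none was higher and 3 were lower in cells labelled cKO (Elane -2.30, Gzmb -1.38, Gzma -1.03), where 0.509% of all genes were lower. For IR in cells labelled cKO of blood none was past the limit (1.37% of all genes in either direction), with a list median of -0.14. NK cell-like cells, for which Gzma is a naming marker, were 202 of 4609 cells in WT and 55 of 3787 in cKO of blood control, and their part was not tested.

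The stefins Stfa1, Stfa2 and Stfa2l1, inhibitors of cysteine cathepsins, were lower in tumor than in blood in all 4 comparisons, where 15.5 to 16.5% of all genes were lower. Stfa1 was at -9.14 to -4.63 on the log2 scale there. The same stefins were lower in monocyte-like than in neutrophil-like cells of blood control, where 15% of all genes were lower in WT and 12.8% in cKO. Stfa1 was at -8.53 in WT and -10.28 in cKO. The neutrophil marker sums given in the report moved the same way, and their part was not tested.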
